A study of Homo sapiens with 10 samples.

Results

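The integrin and laminin genes were taken as the 26 integrin genes (18 encoding alpha and 8 encoding beta subunits) and 10 laminin chain genes, which is 36 of the 20090 protein-coding genes of the autosomes and X with a unique symbol in the annotation. Each gene was examined over its body plus 10 kb on each side, called its locus here, on the hg19 (GRCh37) build. The study mapped the receptor HER2 on chromatin by ChIP-exo, in which an exonuclease trims the DNA up to the bound protein, and mapped the histone mark H3K4me1 by ChIP-seq. SKBR3 and BT474, both established human breast cancer lines with an amplified ERBB2 gene, were used, and each line was grown in its own medium, so line and medium cannot be told apart. HER2 was mapped in cells that kept their serum and were given vehicle (water) or EGF at 100 ng/ml for 3 hours, with 1 peak list for each line and treatment. H3K4me1 was mapped in 2 replicates of each line, which the labels describe only as asynchronous cells, whereas the article reports EGF treatment, so the treatment of those cells remains unsettled. Every difference between lines below is a difference between 1 line and 1 other line.

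Integrins are paired receptors of 1 alpha and 1 beta subunit that fasten cells to the surrounding matrix and, through adaptors such as talin, to the cytoskeleton. Laminins are cross-shaped trimers of an alpha, a beta and a gamma chain that form the sheet of the basement membrane on which mammary epithelium sits, and several integrins bind them. H3K4me1 is laid down at enhancers and on the flanks of active promoters, and it does not by itself say whether a gene is transcribed.

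The 4 H3K4me1 libraries held between 15097156 and 18713926 reads inside islands, the broad stretches of enrichment that SICER calls, and the islands covered between 296 and 320 Mb. The smallest island in any library held between 20 and 28 reads, so a locus with no listed island may still carry reads. Among the marker genes, ERBB2 was covered over 98.1% to 100% of its locus in all 4 libraries, and PGR, the progesterone receptor gene, listed as a marker of BT474, was covered over 87.6% and 88.2% in BT474 against 3.66% and 3.49% in SKBR3. ESR1, the estrogen receptor gene and the other marker listed for BT474, was covered over 26.5% and 28.0% in BT474 and 20.4% and 20% in SKBR3, its reads were not called (log2 ratio -0.18, adjusted p = 0.0629 by edgeR), and its start site lay in islands of both SKBR3 libraries and of neither BT474 library. Reads over the 2 Mb on each side of ESR1 were higher in SKBR3 by 1.89 on the log2 scale. With that as an offset in the edgeR fit, ESR1 was lower in SKBR3 (-2.21, adjusted p = 0.00111). KRT8, KRT18, KRT19, GATA3 and FOXA1 had islands in every library, but CDH1, the epithelial cadherin, had none in SKBR3, and among 4 genes of basal or mesenchymal cells KRT14 had islands in SKBR3 alone, ZEB1 in BT474 alone, and KRT5 and VIM in both. In bulk chromatin a smaller share of marked cells and a weaker mark per cell cannot be told apart.

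To ask how the 2 lines differ at these loci, reads in islands were summed per locus and compared by edgeR's quasi-likelihood test over all 17341 loci that passed the filter on low counts. The labels do not say that replicates came from separate cultures, so p-values measure only the spread between these libraries. Of the 34 that could be tested, 16 were higher in SKBR3, 8 were higher in BT474 and 10 were not called at an adjusted p under 0.05. Over all loci tested, 28.8% were called higher in SKBR3 and 35.6% higher in BT474, against 47.1% and 23.5% of these members. The lower share in BT474 rested on both BT474 libraries, since without BT474 replicate 1 it was 7 members beside 18.1% of all loci, and without replicate 2 it was 6 members beside 17.5%. In the same fits 14 and 13 members were higher in SKBR3, beside 21.8% and 20.6% of all loci. Their median log2 ratio of SKBR3 to BT474 was 0.31, and that of all loci was -0.19 (-0.34 with library totals alone as the scale). Integrins gave 12 higher in SKBR3 and 6 higher in BT474 of 25 tested, and laminins 4 and 2 of 9. The 2 untested members were ITGA2B, the platelet alpha subunit, with 55 reads in a single BT474 library, and LAMA1, for which no island was listed in any library.

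The level of whole chromosome regions also differed between the lines, so the log2 ratio over the 2 Mb on each side of each locus, with the locus left out, was computed as well. When it entered the fit as an offset, 13 members were higher in SKBR3 and 7 higher in BT474, beside 23.6% and 36.1% of all loci, and 15 of the 24 calls were made again with the same sign. Those 15 were ITGA1, ITGA5, ITGAD, ITGAE, ITGAL, ITGAM, ITGAX, ITGB2, ITGB8, LAMA2, LAMA5 and LAMB1 on the SKBR3 side and ITGA8, ITGB1 and ITGB7 on the BT474 side. The calls of ITGA2, ITGA3, ITGA6, ITGAV, ITGB4, LAMA3 and LAMC3 ended, and those of ITGA9 and LAMB3 turned. Called with the offset and not without it were ITGB5, higher in SKBR3, and ITGA10 and LAMC1, higher in BT474. Why the regional levels differ was not tested.

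**Figure D1:**
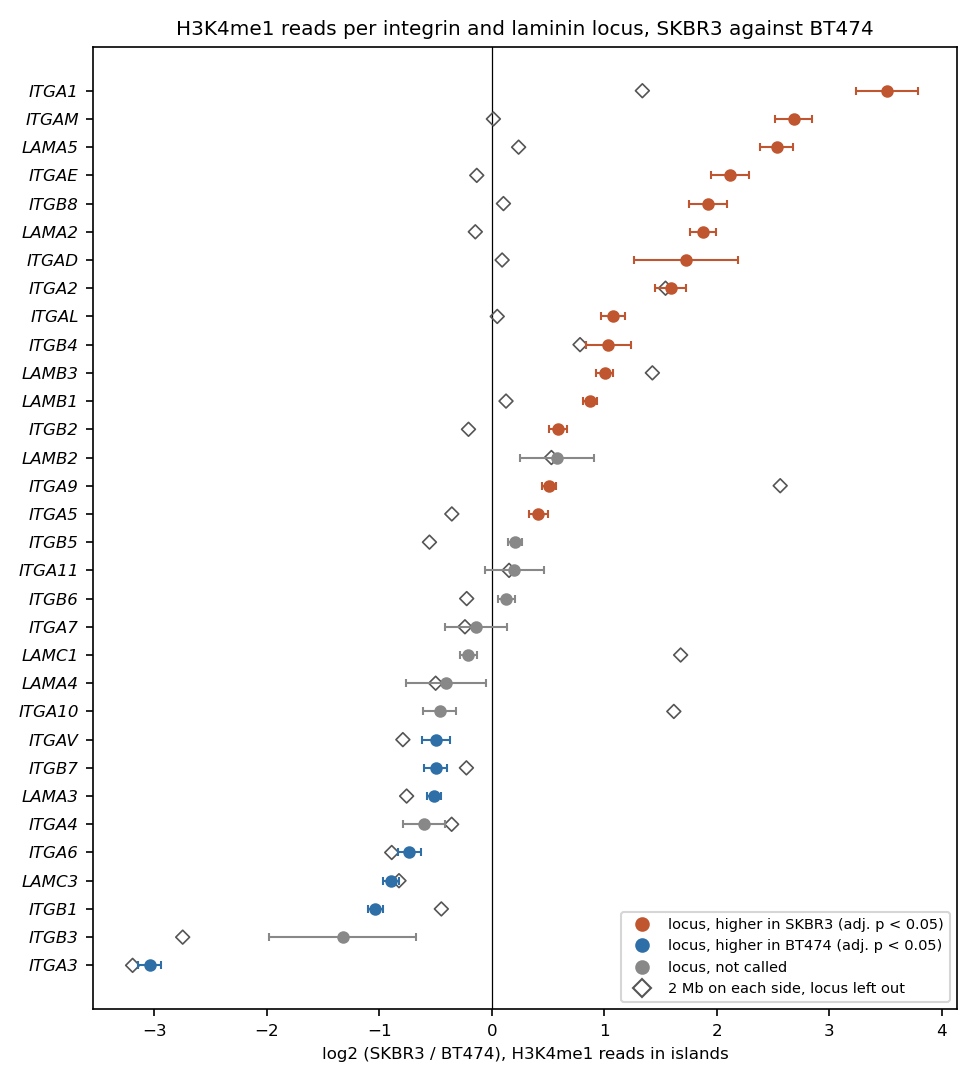
Log2 ratio of SKBR3 to BT474 reads in H3K4me1 islands (x axis) for the 32 members that had islands in both lines and were tested, with bars for the standard error, and open diamonds for the ratio over the 2 Mb on each side. ITGA1 lies farthest to the SKBR3 side at 3.51 and ITGA3 farthest to the BT474 side at -3.04, and for ITGA3 the diamond, at -3.19, lies beside the locus.

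Among the alpha subunits that bind collagen, ITGA1 and ITGA2 were higher in SKBR3, and ITGA10 and ITGA11 were not called. ITGA1, at chr5:52083750-52255039 on the plus strand, held 2075 and 1872 reads in SKBR3 and 176 and 233 in BT474. Both SKBR3 libraries lay far above both BT474 libraries, an 11.4-fold difference (log2 ratio 3.51 ± 0.27 SE, adjusted p = 0.00169). The fold holds for reads in islands only, and BT474 islands covered just 2.30% and 3.35% of the ITGA1 locus. The region around ITGA1 was itself higher in SKBR3 by 1.34 on the log2 scale, and with that taken off the ratio was 2.04 (adjusted p = 0.00377). Islands present in both SKBR3 libraries and in neither BT474 library took up 43.6 kb of this locus, the most of any member, and the longest of them ran 7.2 kb, centred 20.5 kb into the gene at chr5:52100601-52107800. ITGA2, the neighbour of ITGA1 on chromosome 5 and the main collagen receptor subunit of epithelia, held 932 and 880 reads in SKBR3 and 362 and 358 in BT474 (log2 ratio 1.59 ± 0.14 SE, adjusted p = 0.00208). Its region differed by as much, 1.54, and nothing was left with the offset (-0.10, adjusted p = 0.472). ITGA10 held 323 and 355 reads in SKBR3 and 568 and 550 in BT474, lower in SKBR3 inside a region that was higher there by 1.62, and was called only with the offset (-2.22, adjusted p = 0.0018), by DESeq2, by limma and on library totals alone. ITGA11 held between 281 and 532 reads, and the libraries of the 2 lines overlapped.

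The laminin-binding alpha subunits ran the other way: ITGA3 and ITGA6 were higher in BT474, none was higher in SKBR3, and ITGA7, the subunit of muscle, was not called, at 250 and 308 reads in SKBR3 and 497 and 262 in BT474. ITGA3 held 582 and 505 reads in SKBR3 and 6191 and 4659 in BT474, an 8.23-fold difference (log2 ratio -3.04 ± 0.11 SE, adjusted p = 0.000545). In BT474 islands covered 89.4% and 65.9% of the ITGA3 locus, the fullest of any member, and in SKBR3 28.0% and 22.1%. The 2 Mb on each side stood 3.19 lower in SKBR3, and with this offset the ITGA3 ratio was 0.01 (adjusted p = 0.943). ITGA6, which pairs with ITGB4 in the hemidesmosome, held 712 and 723 reads in SKBR3 and 1713 and 1188 in BT474 (log2 ratio -0.73 ± 0.10 SE, adjusted p = 0.00568). That difference also ended with the offset (0.02, adjusted p = 0.912).

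Of the alpha subunits that recognise the RGD peptide of fibronectin and vitronectin, ITGA5 was higher in SKBR3, and ITGA8 and ITGAV were higher in BT474. ITGA5, the fibronectin receptor subunit, held 877 and 832 reads in SKBR3 and 832 and 711 in BT474 (log2 ratio 0.42 ± 0.08 SE, adjusted p = 0.0153). The call on ITGA5 ended without BT474 replicate 1 (adjusted p = 0.102), without BT474 replicate 2 (0.0740), over the gene body alone (0.546) and with islands assigned by midpoint (0.707). ITGA8 had no island listed in SKBR3 and 647 and 486 reads in BT474, and it was called higher in BT474 (adjusted p = 0.00108); no fold is given because reads outside islands were not counted. Whether the ITGA8 islands were lost in SKBR3 through the authors' removal of blacklisted and high-input regions was not tested. ITGAV held 431 and 373 reads in SKBR3 and 739 and 626 in BT474 (log2 ratio -0.49 ± 0.12 SE, adjusted p = 0.0279). It was no longer called with the offset (0.15, adjusted p = 0.313), nor without SKBR3 replicate 2 (0.0553), BT474 replicate 1 (0.105) or BT474 replicate 2 (0.142).

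The pair ITGA4 and ITGA9, which bind fibronectin splice forms and VCAM1, split. ITGA9 held 2481 and 2454 reads in SKBR3 and 2256 and 1928 in BT474 (log2 ratio 0.51 ± 0.06 SE, adjusted p = 0.0039). Its region was higher in SKBR3 by 2.56, the largest regional excess of any member, and relative to it ITGA9 was lower (-2.20, adjusted p = 0.00113). ITGA4 held 324 and 331 reads in SKBR3 and 565 and 618 in BT474 and was not called (log2 ratio -0.60 ± 0.19 SE, adjusted p = 0.0526), but it passed without BT474 replicate 1 (-0.81, adjusted p = 0.0356), by DESeq2 (0.0125), by limma (0.0358) and on library totals alone (0.0304).

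The loci of all 5 alpha subunits of the leukocyte integrins (ITGAD, ITGAE, ITGAL, ITGAM and ITGAX) were higher in SKBR3, with regional ratios between -0.13 and 0.09. ITGAE lies on chromosome 17. ITGAL, ITGAM, ITGAX and ITGAD lie on chromosome 16 between 30483979 and 31437826, with overlapping 2 Mb regions, so the 5 calls are not independent. The 5 chains are best known from white blood cells, and their levels in SKBR3 lay between 0.157 and 0.616 RPM per kb (reads scaled to the island total of the library and to the length of the locus), a range that also held ITGB1 at 0.415, ITGA6 at 0.468 and ITGAV at 0.234. ITGAM, the alpha chain of the macrophage receptor Mac-1, held 465 and 469 reads in SKBR3 and 89 and 85 in BT474 (log2 ratio 2.68 ± 0.17 SE, adjusted p = 0.00113). ITGAE, which recognises E-cadherin on epithelium, held 421 and 368 against 124 and 96 (log2 ratio 2.12 ± 0.17 SE, adjusted p = 0.00178). ITGAL, the lymphocyte LFA-1 chain, held 638 and 714 against 414 and 356 (log2 ratio 1.08 ± 0.11 SE, adjusted p = 0.00271). In each of these genes both SKBR3 libraries stood clear of both BT474 libraries. ITGAX had 121 and 112 reads in SKBR3 and no island in BT474 (adjusted p = 0.00267), and ITGAD had 121 and 184 against 78 and 36 (log2 ratio 1.73 ± 0.46 SE, adjusted p = 0.0348). Those 2 loci overlap and share a 3 kb SKBR3 island at chr16:31396201-31399200, so they are not independent. This island lies between the 2 genes, outside both gene bodies, and held 113 and 88 of the 121 and 112 SKBR3 reads of ITGAX. Neither gene body alone was among the loci tested. The call on ITGAD ended without SKBR3 replicate 2 (adjusted p = 0.0980), BT474 replicate 1 (0.0966) or BT474 replicate 2 (0.183). ITGAL shares its locus with parts of 3 other protein-coding genes and ITGAE with 2, and 24 of the 36 loci held part of at least 1 other gene.

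Among the 8 beta subunits, ITGB2, ITGB4 and ITGB8 were higher in SKBR3, ITGB1 and ITGB7 were higher in BT474, and ITGB3, ITGB5 and ITGB6 were not called. ITGB8, which with ITGAV activates latent TGF-beta, held 1662 and 1376 reads in SKBR3 and 589 and 387 in BT474, a 3.79-fold difference (log2 ratio 1.92 ± 0.17 SE, adjusted p = 0.00208) in a region that differed by 0.10. Its SKBR3 islands included runs of 6.8 kb and 6.6 kb in the gene body with no BT474 island. ITGB1, the shared partner of most matrix-binding alpha chains, held 892 and 885 reads in SKBR3 and 2367 and 2019 in BT474, a 2.05-fold difference towards BT474 (log2 ratio -1.04 ± 0.07 SE, adjusted p = 0.00122) that stayed called with the offset (-0.73, adjusted p = 0.0042). ITGB4, the hemidesmosome subunit, held 435 and 538 against 357 and 222 (log2 ratio 1.04 ± 0.20 SE, adjusted p = 0.0148). Its region was higher in SKBR3 by 0.78, and the call ended with the offset (0.11, adjusted p = 0.615) and without BT474 replicate 2 (adjusted p = 0.0656). ITGB2, the leukocyte beta chain that pairs with ITGAL, ITGAM, ITGAX and ITGAD, held 888 and 947 against 830 and 644 (log2 ratio 0.59 ± 0.08 SE, adjusted p = 0.0047). The locus of ITGB7, the partner of ITGAE, went the opposite way from that of ITGAE, with 399 and 377 reads in SKBR3 and 755 and 572 in BT474 (log2 ratio -0.50 ± 0.10 SE, adjusted p = 0.0166). Stretches in islands of all 4 libraries, 6.2 kb in total, lay only in the flanks of ITGB7. The locus also holds parts of ZNF740 and RARG, and the ITGB7 gene body alone was not among the loci tested. The ITGB7 call ended without BT474 replicate 1 (adjusted p = 0.105) or replicate 2 (0.0765).

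Of the beta loci that were not called, ITGB5 was called in some other fits. ITGB5, the broadly expressed vitronectin receptor chain, had the highest cover of all members in SKBR3 and held 5648 and 5386 reads there and 6647 and 4970 in BT474 (log2 ratio 0.20 ± 0.06 SE, adjusted p = 0.0516; it was called with the offset, at 0.61 with adjusted p = 0.00278, over the gene body alone, by DESeq2 and, at 0.27 with adjusted p = 0.0282, without SKBR3 replicate 2). ITGB6, an epithelial subunit that activates TGF-beta, held between 2287 and 2988 reads in all 4 libraries. ITGB3, the platelet and endothelial chain, held 46 and 156 reads in SKBR3 and 378 and 240 in BT474, and its SKBR3 libraries differed from each other by more, in proportion, than its BT474 libraries did. Without SKBR3 replicate 2 it would be called higher in BT474 (log2 ratio -2.42, adjusted p = 0.00471).

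In the laminin alpha chains, LAMA2 and LAMA5 were higher in SKBR3 and LAMA3 was higher in BT474. LAMA5, the alpha chain of the laminins of adult epithelial basement membranes, at chr20:60883011-60942368 on the minus strand, held 1759 and 2094 reads in SKBR3 and 483 and 327 in BT474. This 5.78-fold difference (log2 ratio 2.53 ± 0.15 SE, adjusted p = 0.000997) lay in a region that differed by 0.24, and it was called in all 12 other settings, with log2 ratios between 2.15 and 3.68. A single run of 12.2 kb, chr20:60925001-60937200 in the first part of the gene, lay in islands of both SKBR3 libraries and of neither BT474 library, the longest such run at any member. LAMA2, the alpha chain of muscle laminin and the longest locus at 653 kb, held 3152 and 2729 reads in SKBR3 and 1124 and 819 in BT474 (log2 ratio 1.88 ± 0.11 SE, adjusted p = 0.00108), in a region that differed by -0.15. LAMA3, the alpha chain of laminin-332, the anchor of epithelial hemidesmosomes, held 1291 and 1295 against 2413 and 2040 (log2 ratio -0.52 ± 0.06 SE, adjusted p = 0.00388), and this ended with the offset (0.10, adjusted p = 0.348). LAMA4, the endothelial alpha chain, held between 164 and 453 reads and its lines overlapped, though without SKBR3 replicate 1 it was called higher in BT474 (log2 ratio -0.89, adjusted p = 0.0311).

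The beta chains LAMB1 and LAMB3 were higher in SKBR3, and the gamma chain LAMC3 was higher in BT474. LAMB1, common to many laminins, held 3960 and 3721 reads in SKBR3 and 2752 and 2307 in BT474 (log2 ratio 0.87 ± 0.06 SE, adjusted p = 0.00151). LAMB3, which joins LAMA3 in laminin-332, held 1336 and 1271 against 893 and 682 (log2 ratio 1.00 ± 0.08 SE, adjusted p = 0.00166). The LAMB3 region was higher in SKBR3 by 1.43, and relative to it the locus was lower (-0.57, adjusted p = 0.00616). LAMA3 and LAMB3, chains of the same trimer, were thus called in opposite directions, and neither call was made again with the offset. LAMC3 held 651 and 625 reads in SKBR3 and 1589 and 1280 in BT474 (log2 ratio -0.90 ± 0.07 SE, adjusted p = 0.00171; with the offset -0.21, adjusted p = 0.119). LAMC1, the gamma chain of most laminins, held 1024 and 1021 against 1513 and 1330 and was not called (log2 ratio -0.21 ± 0.08 SE, adjusted p = 0.0789), but its region was higher in SKBR3 by 1.68 and with the offset it was (-2.03, adjusted p = 0.00131). LAMB2, the beta chain of muscle and kidney laminins, held between 150 and 243 reads, with the lines overlapping.

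The share of a locus under islands gave a similar division. It was taken from the same islands as the reads, so it is not an independent result. For 18 of the 36 members both SKBR3 libraries had more of the locus covered than both BT474 libraries, for 10 the reverse held, and for 8 the lines overlapped. Over all genes the first order was found for 30.5% and the reverse for 39.6%, and an exact permutation test of 2 against 2 libraries cannot go below p = 0.333, so no test is given. The median cover of the members was 16.1% and 16.0% in SKBR3 and 11.4% and 12% in BT474, while that of all genes was 10.8% and 11.4% in SKBR3 and 13.1% and 12.4% in BT474. ITGB5 was covered most in SKBR3, at 66.2% ± 1.15 (SD, n = 2) against 59.9% ± 3.55 in BT474, followed by LAMB1, at 52.4% ± 2.13 against 44.7% ± 2.09, and ITGA5, at 43.4% ± 1.61 against 27.5% ± 4.90. In BT474 the order was ITGA3, at 77.6% ± 16.6, then ITGB5 and LAMB1. Both BT474 values of ITGA3 lay above both of ITGB5, which were 62.5% and 57.4%. ITGB6 was covered more in both SKBR3 libraries (43.6% and 42.1%) than in both BT474 libraries (35.2% and 30.8%) although its reads were not called. In total, 253 kb of the 4588 kb examined lay in islands of both SKBR3 libraries alone, 123 kb in islands of both BT474 libraries alone, and 345 kb in islands of all 4. ITGA1 held 43.6 kb and LAMA2 40.8 kb of the SKBR3 total, and ITGA3 held 20.4 kb of the BT474 total. These lengths were not computed over all gene loci, so they do not compare the members with other genes.

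**Figure D2:**
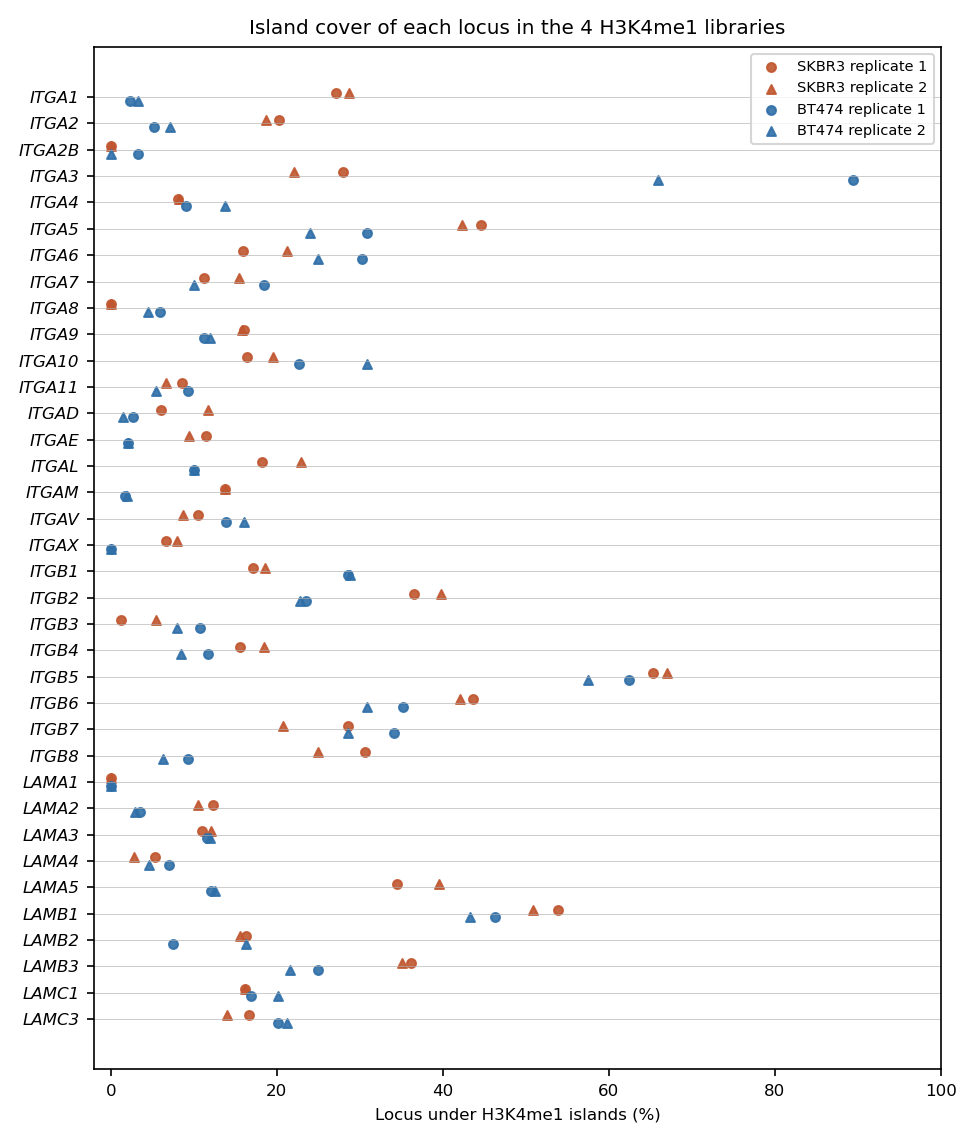
Percentage of each locus under H3K4me1 islands (x axis) for the 36 members, with 1 point per library and replicates 1 and 2 as circles and triangles. Both SKBR3 points lie right of both BT474 points for 18 members, and ITGA3 in BT474 holds the highest values, 89.4% and 65.9%.

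**Figure D3:**
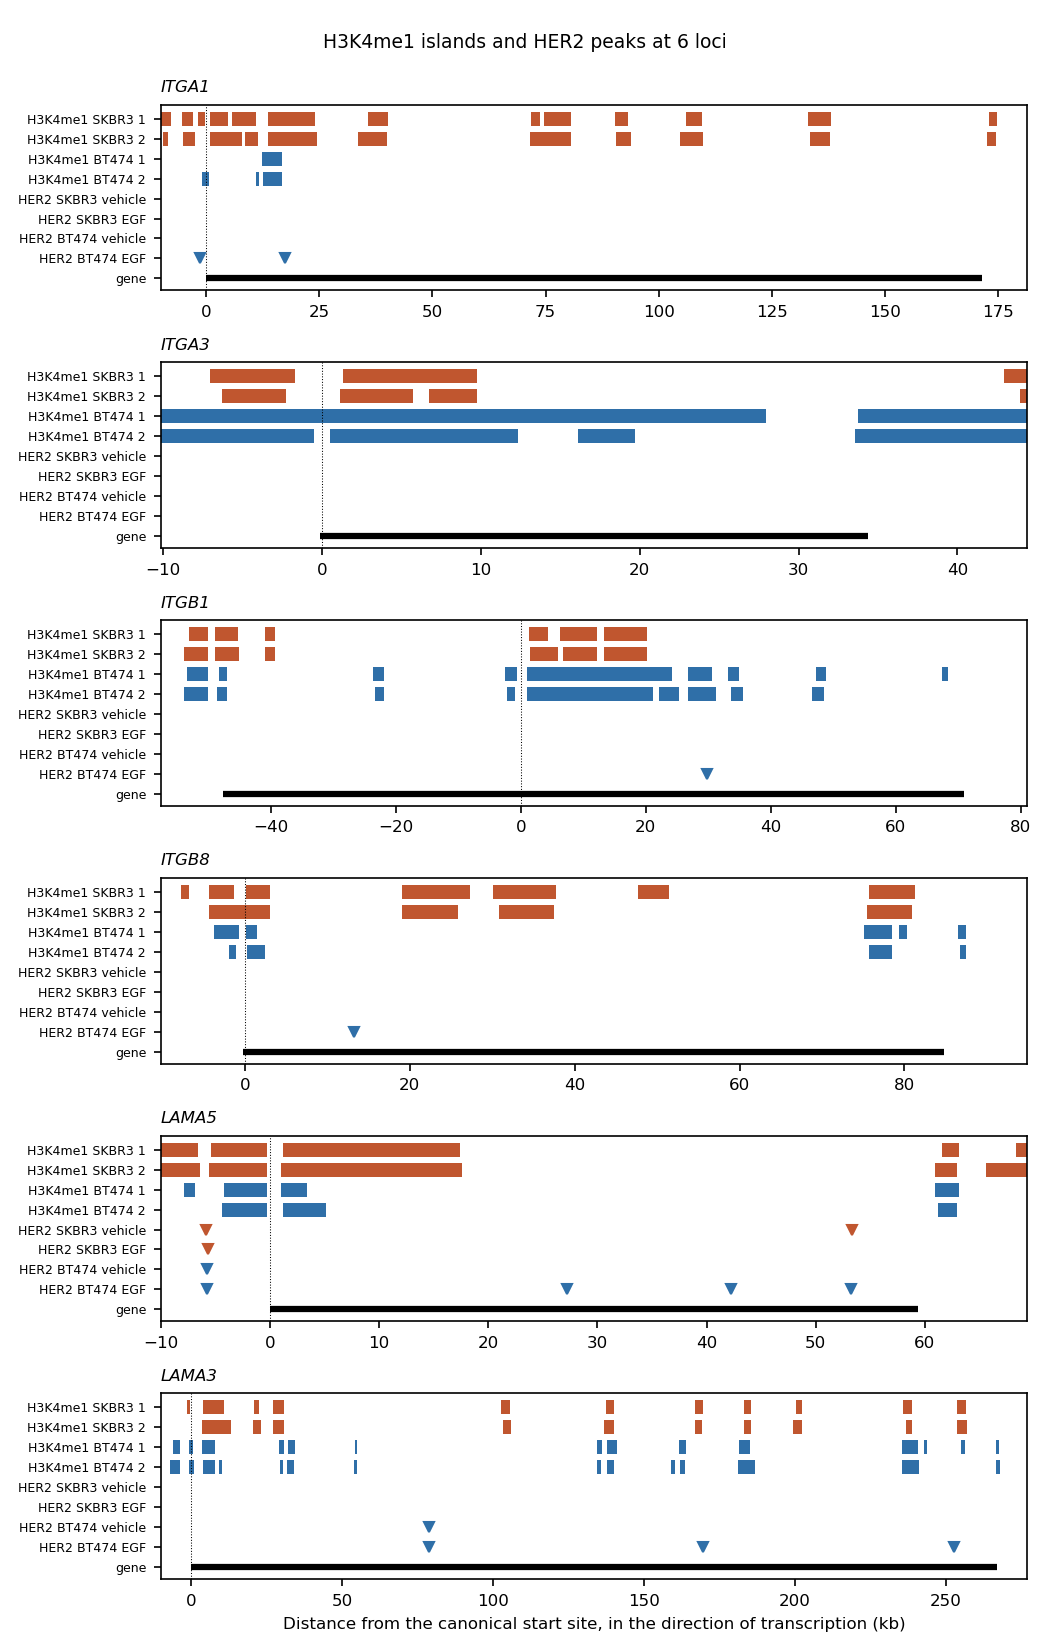
H3K4me1 islands (bars) in the 4 libraries and HER2 peak midpoints (triangles) in the 4 lists across 6 loci, plotted by distance in kb from the canonical start site in the direction of transcription, with the gene as a black line. ITGA1, ITGB8 and LAMA5 show long SKBR3 bars with no BT474 bar under them, ITGA3 shows the reverse, and HER2 triangles are mostly in the BT474 EGF row and outside the bars.

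At start sites the members were near the shares over all genes, apart from a higher share of start sites in BT474 islands. No difference was tested. The canonical start site lay inside an island of both SKBR3 libraries for 3 members (ITGB4, ITGB6 and LAMB3), where 8.53% of all genes did so, and inside an island of both BT474 libraries for 7 (the same 3 with ITGA5, ITGA10, LAMA3 and LAMA4), where 11.6% of all genes did so. Within 2 kb of the start site, both SKBR3 libraries were covered more than both BT474 libraries for 4 members (ITGA9, ITGAM, ITGB4 and LAMC1) and less for 9; over all genes these orders held for 12.7% and 29.9%. ITGAM had 42.4% and 67.4% of this window covered in SKBR3 and none in BT474, and ITGA9 had 25.8% and 40.8% in SKBR3 and none in BT474, so both start windows were marked in SKBR3 alone. ITGA6 was the mirror image, with none in SKBR3 and 47.8% and 57.8% in BT474, and LAMA4 had none against 55.0% and 40.0%. ITGB1 had 16.1% and 11.1% in SKBR3 and 60.0% and 55.0% in BT474. The whole window was covered in all 4 libraries at ITGB6 and LAMB3. At 10 members no library had an island in the window, among them ITGA4, ITGAE, ITGAL, ITGB7 and LAMA2.

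Several members have further annotated coding starts, and islands lay at some of these and not at the canonical start. The inner start of LAMA3, 184 kb downstream of the canonical start, had 60.0% of its 2 kb flanks covered in each SKBR3 library and 90.4% and 100% in BT474, where the canonical start had 25% and none in SKBR3 and 35% and 45% in BT474. ITGB2 had no cover around its canonical start in 3 libraries and 4.67% in the other, but 90.3%, 85.3%, 50.3% and 60.3% around the upstream start, at -7.97 kb (SKBR3 replicates 1 and 2, then BT474 replicates 1 and 2). A start of LAMA2 at 608 kb, near the 3′ end of that gene, had 100% and 85.0% in SKBR3 and 55.0% and none in BT474, while the canonical start of LAMA2 had none in any library. The cover at the canonical start of these 3 genes was thus below that at their other start in most libraries.

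**Figure D4:**
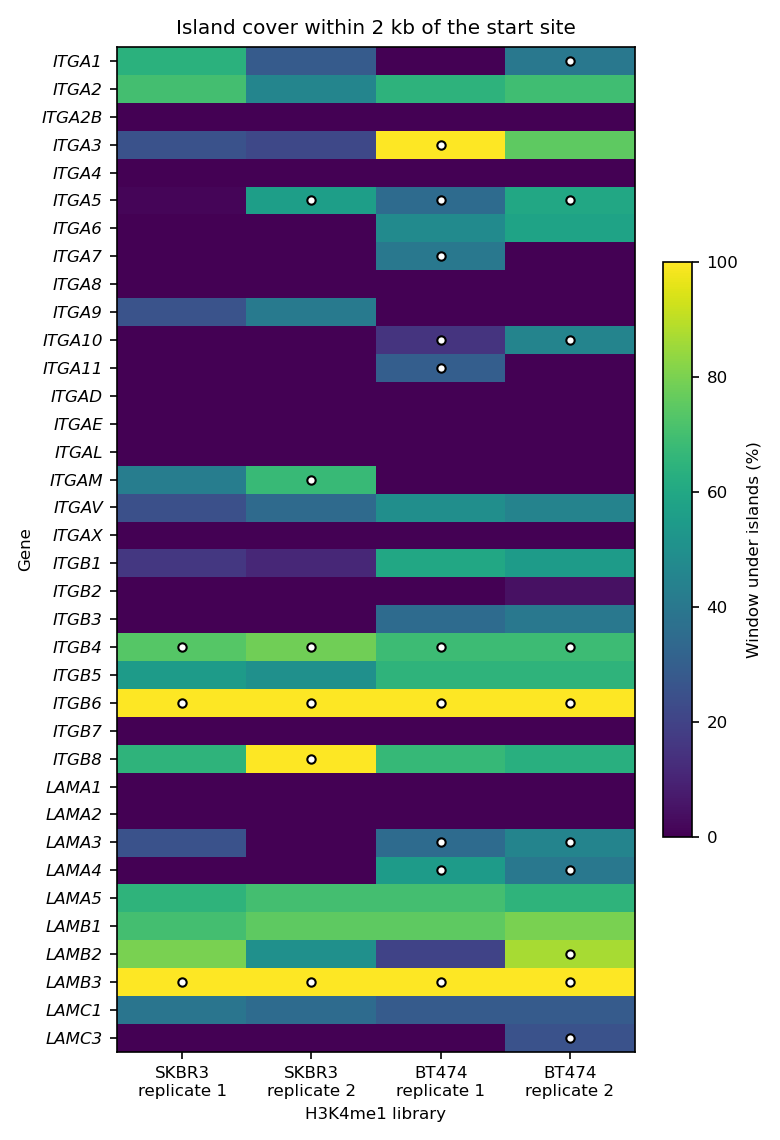
Colour gives the percentage of the 2 kb on each side of the canonical start site under islands in each H3K4me1 library, by gene (rows) and library (columns), and white dots mark libraries in which the start site itself lies in an island. ITGB6 and LAMB3 are at 100% in all 4 libraries, and ITGA6 and LAMA4 have cover in BT474 alone.

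Genes that act with integrins and laminins were read from the same fit. Of 14 basement membrane genes 8 were higher in SKBR3 and 3 in BT474, of 15 focal adhesion genes 7 and 7, and of 4 hemidesmosome genes 2 and 0; their median log2 ratios were 0.52, 0.02 and 0.35, beside -0.19 over all loci. Of all loci 28.8% were called higher in SKBR3 and 35.6% higher in BT474. With the regional level as an offset, 12 partner genes were higher in SKBR3 and 9 in BT474, beside 23.6% and 36.1% of all loci. Of the basement membrane genes, COL4A2, FN1 and HSPG2 were then higher in SKBR3. COL4A4, COL4A6, COL18A1, NID1 and VTN were then higher in BT474, so the lean of that list towards SKBR3 did not hold. COL4A2, a type IV collagen chain of the basement membrane, held 4700 and 5165 reads in SKBR3 and 1332 and 931 in BT474 (log2 ratio 2.41 ± 0.10 SE, adjusted p = 0.000651). COL4A1, its head-to-head neighbour and partner chain, was also higher in SKBR3 (log2 ratio 1.46 ± 0.25 SE, adjusted p = 0.00969), though not with the offset (adjusted p = 0.334) nor without BT474 replicate 1 (0.0788) or replicate 2 (0.0906). VTN, the gene of vitronectin, a ligand of ITGAV integrins, was higher in SKBR3 by 0.97 ± 0.09 SE on the log2 scale (adjusted p = 0.00235) but lower relative to its region (-0.29, adjusted p = 0.0445). NID1, which ties laminin to type IV collagen, had no island in SKBR3 and 287 and 233 reads in BT474 (adjusted p = 0.00208), and COL4A4 (-1.29 ± 0.36 SE, adjusted p = 0.0404) and COL18A1 (-0.55 ± 0.11 SE, adjusted p = 0.0145) were also lower in SKBR3. Both of these ended without BT474 replicate 1 (adjusted p = 0.193 for COL4A4 and 0.0886 for COL18A1) and without BT474 replicate 2 (0.165 and 0.0624).

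In the focal adhesion list, SRC, the tyrosine kinase that acts downstream of integrins, had 1196 and 1613 reads in SKBR3 and no island in BT474 (adjusted p = 0.00139). TLN1, the talin that switches integrins on, held 728 and 869 against 209 and 122 (log2 ratio 2.56 ± 0.21 SE, adjusted p = 0.00198), and FERMT1, the epithelial kindlin, 355 and 427 against 193 and 161 (log2 ratio 1.41 ± 0.16 SE, adjusted p = 0.00354; with the offset 0.15, adjusted p = 0.489). PTK2, the focal adhesion kinase, was lower in SKBR3, at 1728 and 1530 reads against 12760 and 10705 (log2 ratio -2.58 ± 0.08 SE, adjusted p = 0.000519), in a region lower by 2.34, and was not called with the offset (adjusted p = 0.122). BCAR1, the adaptor p130Cas, was lower in SKBR3 (log2 ratio -1.58 ± 0.18 SE, adjusted p = 0.00319; with the offset 0.128). PARVB, a parvin, had no island in SKBR3 and 202 and 200 reads in BT474 (adjusted p = 0.00258), and its call ended without BT474 replicate 1 (0.0563) or replicate 2 (0.0762). Of the hemidesmosome genes, CD151, a tetraspanin that binds laminin receptors, held 318 and 715 reads in SKBR3 and 185 and 66 in BT474 (log2 ratio 2.36 ± 0.62 SE, adjusted p = 0.034). It was not called with the offset (adjusted p = 0.399), nor without SKBR3 replicate 2 (adjusted p = 0.0548), BT474 replicate 1 (0.0558) or BT474 replicate 2 (0.117). DST, the plakin that anchors keratin, was higher by 0.28 ± 0.07 SE (adjusted p = 0.024), but not without BT474 replicate 1 (0.122) or replicate 2 (0.114), nor on library totals alone (0.0794).

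To ask where HER2 was found at these genes, peaks that overlapped a locus were counted in each list. The 4 lists were of very different length, with 2596 peaks in SKBR3 with vehicle, 2520 in SKBR3 with EGF, 8559 in BT474 with vehicle and 29326 in BT474 with EGF, and there was 1 list for each condition, so no difference between them was tested. In the same order, 2, 4, 8 and 22 of the 36 members held a peak, and 6.31%, 6.73%, 19.7% and 44.6% of all genes did. The member loci are long (median 101 kb, against 47.3 kb for all genes), and per Mb they held 0.656, 0.875, 1.75 and 8.97 peaks, against 0.899, 0.900, 3.14 and 10.6 for all gene loci. Exact Poisson intervals at 95%, which cover counting error only, ran from 0.135 to 1.92, 0.238 to 2.24, 0.756 to 3.45 and 6.44 to 12.2 and held the value of all loci in each list. The members thus held fewer peaks per Mb than all loci in each list, by less than the counting error.

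**Figure D5:**
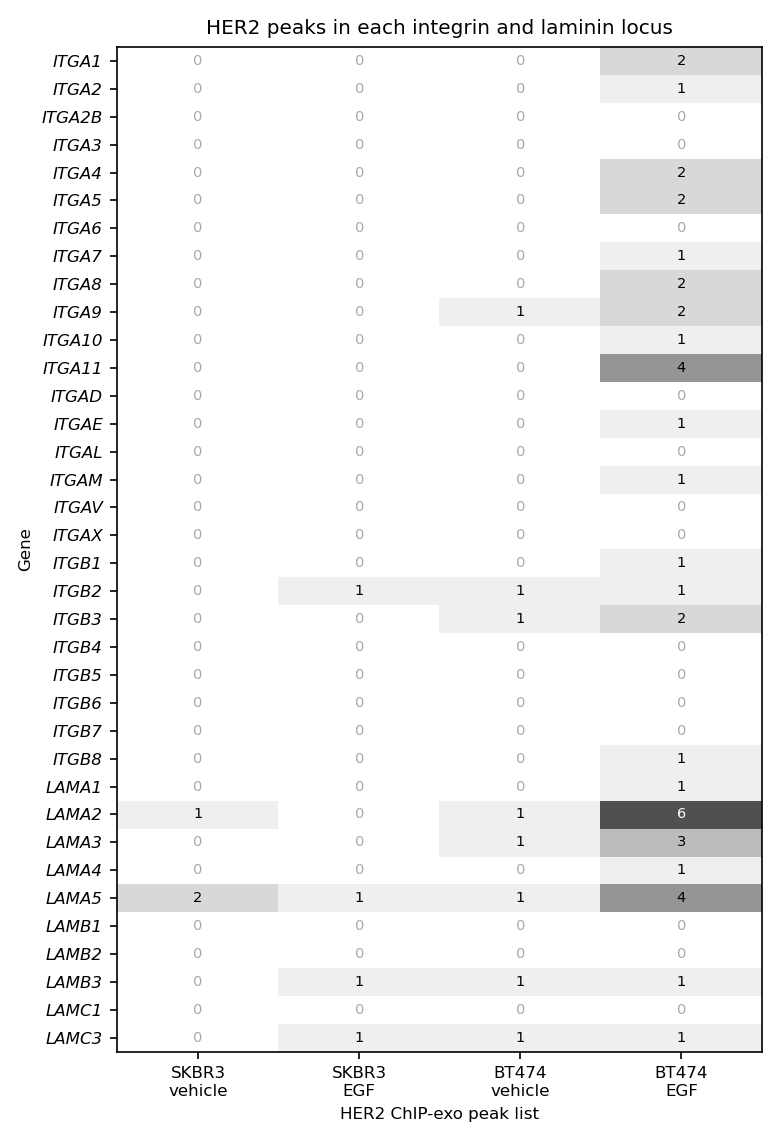
Number of HER2 peaks in each locus (rows) in each of the 4 ChIP-exo lists (columns), with darker cells for more peaks. Counts above 1 are in the BT474 EGF column apart from the 2 of LAMA5 in SKBR3 with vehicle, and LAMA2 has the most, 6.

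The 56 peaks of the 4 lists fell into 42 separate sites, of which 32 were in the BT474 EGF list alone, 1 was in the SKBR3 vehicle list alone, 5 were in 2 lists, 3 in 3 lists and 1 in all 4. No site was found in SKBR3 with EGF or BT474 with vehicle alone. Of the 42 sites, 32 lay in introns, 4 upstream, 3 downstream, 2 in exons of other transcripts and 1 in a coding exon of the canonical transcript. LAMA2 held 6 peaks in BT474 with EGF, and ITGA11 and LAMA5 held 4 each. No peak in any list lay at 14 members, among them ITGA3, ITGA6, ITGAV, ITGB4, ITGB5, ITGB6, LAMB1 and LAMC1, which include the 3 most covered loci of BT474.

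The 4 sites found in at least 3 lists belonged to LAMA5, ITGB2, LAMB3 and LAMC3, and these were the 4 peaks of the SKBR3 EGF list, each also present in both BT474 lists. Of all 2520 peaks of that list, 64.2% overlapped peaks of at least 2 other lists. The stretch common to the lists is shown for LAMA5, LAMC3 and LAMB3, on the plus strand of hg19, because these are member sites seen in both lines, and capitals mark AGAGA or its complement TCTCT.
LAMA5, upstream (chr20:60948109-60948186): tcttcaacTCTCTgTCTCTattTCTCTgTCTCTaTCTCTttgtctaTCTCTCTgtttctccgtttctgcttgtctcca
LAMC3, intron (chr9:133907779-133907978): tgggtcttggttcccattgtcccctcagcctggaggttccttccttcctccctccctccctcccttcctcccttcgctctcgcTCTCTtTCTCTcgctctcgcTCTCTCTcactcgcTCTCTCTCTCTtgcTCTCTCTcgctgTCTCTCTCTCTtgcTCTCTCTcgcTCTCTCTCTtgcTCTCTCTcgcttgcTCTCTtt
LAMB3, intron (chr1:209809804-209809999): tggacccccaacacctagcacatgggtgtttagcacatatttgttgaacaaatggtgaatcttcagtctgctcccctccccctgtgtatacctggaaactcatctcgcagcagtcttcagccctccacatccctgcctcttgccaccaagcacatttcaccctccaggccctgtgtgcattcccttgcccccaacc

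The LAMA5 and LAMC3 stretches were runs of AGAGA or TCTCT, with 7 and 22 overlapping matches, and LAMB3 had none. In the 201 bp around the site midpoint, 5 or more matches were found at 8 of the 42 sites, at 3 of the 4 sites in at least 3 lists and at 5 of the 33 sites in a single list, the last being ITGA2, ITGA5, ITGA7, ITGAM and ITGB3. The letters were looked at after the sites were seen. Over whole lists, 33.1% of SKBR3 vehicle peaks, 19.5% of SKBR3 EGF peaks, 7.80% of BT474 vehicle peaks and 12.9% of BT474 EGF peaks held as many.

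Within its own list the LAMA5 upstream site, at -5.76 kb from the start site, ranked 2423 of 2596 in SKBR3 with vehicle, 689 of 2520 in SKBR3 with EGF, 7308 of 8559 in BT474 with vehicle and 1294 of 29326 in BT474 with EGF. It thus stood higher in the order of both EGF lists than in that of the vehicle lists, though the lists differ in length. The ITGB2 site ranked 1432 in SKBR3 with EGF, 5123 in BT474 with vehicle and 3922 in BT474 with EGF. The LAMC3 site ranked 1503, 4313 and 3547 in those lists, and the LAMB3 site 2255, 7935 and 8808.

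The core of the HER2 motif that the study described can be written CGTNTGC, where N is any base. Of the member sites with this core on either strand, 3 are shown here with the core in capitals, on the plus strand of hg19. The first pair hold it within 50 bp of the midpoint. The ITGB1 site lies in a BT474 island.
ITGA9, intron (chr3:37619250-37619483): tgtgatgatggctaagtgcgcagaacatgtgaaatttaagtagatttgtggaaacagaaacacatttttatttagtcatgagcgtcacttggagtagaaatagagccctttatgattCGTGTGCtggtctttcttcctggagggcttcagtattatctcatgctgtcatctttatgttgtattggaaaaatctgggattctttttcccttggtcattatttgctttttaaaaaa
ITGB3, downstream (chr17:45400601-45400840): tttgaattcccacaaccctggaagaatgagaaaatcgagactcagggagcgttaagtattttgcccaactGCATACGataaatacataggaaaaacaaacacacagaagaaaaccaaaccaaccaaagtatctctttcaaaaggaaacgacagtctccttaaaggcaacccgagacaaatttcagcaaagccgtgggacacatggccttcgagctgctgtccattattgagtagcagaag
ITGB1, intron (chr10:33217223-33217423): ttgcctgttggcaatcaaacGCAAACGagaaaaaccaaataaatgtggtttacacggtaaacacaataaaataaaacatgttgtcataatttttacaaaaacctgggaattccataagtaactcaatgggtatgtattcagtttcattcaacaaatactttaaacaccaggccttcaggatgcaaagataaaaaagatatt

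The core lay within 50 bp of the midpoint of 2 of the 41 BT474 EGF peaks of the members, 4.88% (95% Wilson interval 1.35% to 16.1%), where 7.48% of that whole list had it. It was found at 1 of 8 BT474 vehicle peaks, the ITGB3 site, and at none of the 3 and 4 peaks of the SKBR3 lists, for which 0 allows up to 56.1% and 49.0% (Wilson). Anywhere in the peak, 17.1% of the BT474 EGF peaks of the members held it, the ITGA11, ITGAM, ITGB1, LAMA2 and LAMA5 sites besides those of ITGA9 and ITGB3. The share of the whole list with the core anywhere in the peak was not computed, so 17.1% cannot be set against 7.48%.

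Few HER2 peaks of the members lay in H3K4me1 islands of the same line. In BT474 with EGF it was 3 of 41, 7.32% (95% Wilson interval 2.52% to 19.4%), where 18.8% of the peaks in all gene loci did, a value inside the interval. In BT474 with vehicle it was 0 of 8 (Wilson, up to 32.4%), in SKBR3 with EGF 1 of 4 and in SKBR3 with vehicle 0 of 3, where all gene loci gave 20.7%, 22.1% and 24.4%. The 3 BT474 peaks were at ITGA5, ITGB1 and ITGA4. The ITGA5 peak, chr12:54780076-54780401, lay downstream of ITGA5 inside the neighbouring gene ZNF385A, in islands of all 4 libraries. The ITGB1 peak, chr10:33217157-33217490, lay in an intron 29.8 kb from the start site, in an island run of 3.8 kb that both BT474 libraries and neither SKBR3 library had. The ITGA4 peak lay downstream, in the gene CERKL, in an island of BT474 replicate 2 alone. The SKBR3 peak was the LAMA5 upstream site, where an island of SKBR3 replicate 2 overlapped 100 bp. ITGA3, whose BT474 islands were the fullest of any member, had no HER2 peak in any list.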

How the data were processed

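H3K4me1 ChIP-seq islands (2 replicates of each line) and HER2 ChIP-exo peaks (1 list for each line and treatment) were used. The members and the lists of partner and marker genes were chosen with earlier results of these data known. The submitters' processing notes name BWA 0.5.9, MACS 1.4.1, SICER 1.1 and GRCh37, while the article's methods name bowtie2, MACS2 and SICER with the input of each line as control, and state that blacklisted and high-input regions were removed. The 2 input samples were not used here. The authors deposited, for each island, a count of reads that is not normalized, so files hold reads in islands only. The authors deposited, for each HER2 peak, a score whose scale is not stated, so scores were compared within a list only, and the depth of these lists is unknown.

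Gene models were those of GENCODE for GRCh37, whose chromosomes match the coordinates of the files. Island counts were divided over a locus (gene body and 10 kb on each side) by the bases shared, and rounded to whole reads for the test. Counts were compared with edgeR 4.0.16 (TMM factors, quasi-likelihood test, Benjamini-Hochberg adjustment, threshold 0.05) after its filter on low counts, in R 4.3.3, with the SE of a log2 ratio taken from the F statistic, and the regional level of 2 Mb on each side was used as an offset in an added fit. DESeq2 1.42.0 and limma 3.58.1 (log2 with a pseudocount of 0.5) were alternatives. Python 3.11.15 with pandas 2.3.3, scipy 1.17.1 and pysam 0.24.0 gave covers, overlaps (at least 1 bp) and sequences. Scripts were tested on simulated data. Intervals are 95% and cover counting error only.

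Genes were named as follows: called members, up to 12 with the largest change in each direction; the 3 members with the highest mean cover in each line; members with a HER2 peak in at least 3 lists; the 3 members with most HER2 peaks in a list; and, in each partner list, the 3 called genes with the largest change in each direction. The other members are given for completeness, and genes outside this rule were chosen after their values were seen. Replicate numbers did not pair the samples. Sequences of sites at exons are not reported here.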

Additional observations from a re-analysis of the deposited data

Results flagged for a closer look

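At LAMA2 the number of HER2 peaks with EGF minus that with vehicle was -1 in SKBR3 and 5 in BT474, and at LAMA5 it was -1 in SKBR3 and 3 in BT474, which are opposite signs. The SKBR3 change is a single peak at each gene, and the BT474 list held 29326 peaks with EGF against 8559 with vehicle, so these counts show no opposite response. Each condition has 1 peak list, and the difference between the lines was not tested.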

How the results depend on the processing

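With the regional level as an offset the log2 ratio changed sign for ITGA2 (-0.10), ITGA3 (0.010), ITGA6 (0.015), ITGA9 (-2.20), ITGAV (0.15), LAMA3 (0.10), LAMB3 (-0.57) and VTN (-0.29). Leaving out 1 library in turn, where the lone sample of a line is assumed to vary like the others, gave 13 to 16 members higher in SKBR3 and 6 to 9 higher in BT474. The partner genes gave 11 to 18 higher in SKBR3 (17 with all libraries, 11 without either BT474 library) and 6 to 10 higher in BT474 (10 with all libraries, 6 on gene bodies alone). Over all genes, calls higher in BT474 ranged from 3112 to 7031 (6166 with all libraries, 3187 without BT474 replicate 1 and 3112 without replicate 2). With the replicate number as a block, 12 members were higher in SKBR3 and 6 in BT474, and 10 partner genes were higher in SKBR3. Of all loci 22.2% were then higher in SKBR3 and 24.1% in BT474. The ranges for members and partner genes above are given without the shares over all loci, which also fell without either BT474 library. They thus do not compare these genes with all loci. The numbers are shared labels only (correlation of deviations -0.038), and this block ended the calls of ITGA5, ITGAD, ITGAV, ITGAX, ITGB4 and ITGB7.

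With 1 library against 1, the cover of 13 to 16 members was higher in BT474, start windows were covered more in SKBR3 for 6 to 7 and in BT474 for 15 to 16, and 3 to 6 start sites lay in SKBR3 islands. A window of 5 kb gave 11 members covered more in SKBR3, and the 5′ end of the gene record put 5 start sites in SKBR3 islands. The islands above the median strength gave 4 start windows covered more in BT474 and 4 start sites in BT474 islands. HER2 peaks above the median score touched 1, 1, 3 and 14 members (SKBR3 vehicle and EGF, BT474 vehicle and EGF), and equal numbers of top peaks touched 1 member in BT474 with vehicle and 3 with EGF. The counts of members in this paragraph are given without the shares over all genes, so they do not compare the members with all genes. Of the 4 SKBR3 EGF peaks at members, 0% lay in islands where 50% of the peak or islands of both replicates were required, and 100% of those above the median score, which is 1 of 1 peak, the LAMA5 site. When the whole peak was searched, the core was in 17.1% of the BT474 EGF peaks of the members. HER2 lists have no replicate, and reads outside islands were not counted, which limits folds at low loci.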

Other observations

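Some HER2 sites of BT474 with EGF lay under H3K4me1 islands of SKBR3 and of no BT474 library. At ITGA1, the collagen receptor gene with far more reads in SKBR3, the site chr5:52101168-52101368 (score 28.5, rank 25216 of 29326) lay wholly under islands of both SKBR3 libraries. The site chr5:52082284-52082500 (score 20, rank 27966) lay under an island of SKBR3 replicate 1. At ITGA5 the site chr12:54806646-54806845 (score 21.5, rank 27576) lay under an island of SKBR3 replicate 1. All of these are low in the order of their list, and how often peaks of the whole list lie so was not counted. No HER2 peak was listed at ITGA1 or ITGA5 in either SKBR3 list.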
